A study of Danio rerio with 12 samples.

Results

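The 87 genomic sites described here are places where the zebrafish retinoic acid receptor RARaa was found by ChIP-seq inside conserved noncoding sequence. They were taken from the study's list of 116 RAR sites in conserved elements. According to the paper, these sites belong to genes with a RAR site near the mouse orthologue as well. Removed were the 29 sites that the study also lists near genes regulated by retinoic acid (RA). Removal went by the listed sites only. The paper names nr2f2 among its RA-regulated genes, and a site assigned to nr2f2 remained. The remaining sites were assigned by the study to 77 genes, by proximity, and 14 of the sites were marked as highly conserved from fish to mouse. Each site was overlapped, by at least 1 bp, with the ATAC-seq peaks of 12 samples, which merge into 245646 regions over the whole series.

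Retinoic acid is a vitamin A derivative that gives cells of the early embryo their position along the head-to-tail axis, and in the endoderm it is needed for the pancreatic field. RAR binds DNA as a heterodimer with RXR and can sit on its sites with or without ligand, exchanging corepressors for coactivators when RA binds. Conserved noncoding elements that such receptors occupy often act as enhancers, and an enhancer in use is usually freed of nucleosomes, which ATAC-seq reads out as a peak of transposase insertions.

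All embryos came from incrosses of Tg(sox17:GFP) zebrafish, in which the sox17 promoter drives GFP in the endoderm, and were raised at 23 °C. RA (1 µM), the pan-RAR inverse agonist BMS493 (1 µM) or the solvent DMSO (0.1%) was given from the 2-cell stage to the 3-somites stage (11 hpf), and about 10000 cells were sorted per sample. The DMSO, RA and BMS493 groups are GFP+ endodermal cells, and the non-endodermal group (NE) is the GFP− cells of DMSO-treated embryos, a mixture of all other cell types. Each group had 3 samples. The receptor sites themselves come from another material, whole embryos that had received mRNA for a Myc-tagged RARaa and were exposed to RA before fixation (about 2000 embryos), so that a site need not be bound in endodermal cells. No gene annotation of the Zv9 assembly was used, and the endodermal label was not checked against marker genes.

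Sequencing gave 18928561 to 32052207 tags per sample, of which 11056595 to 22930744 remained after removal of duplicates. The peak lists held between 95779 and 143755 peaks in NE. In the endoderm they held 51301 to 121433 peaks with DMSO, 83515 to 116700 with RA and 75611 to 115656 with BMS493. The shortest list was that of DMSO replicate 1. Peak height was expressed as the percentile rank of the pileup (how many extended tags cover the summit of a peak) within the sample's own list, on a scale from 0 to 100, with 0 where the sample had no peak at the site. A value of 0 therefore means a signal under the threshold of the peak caller and not the absence of accessible DNA.

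Most of the conserved RAR sites were accessible in at least 1 sample. A peak overlapped 74 of the 87 sites (85.1%, 95% Wilson interval 76.1 to 91.1%), 24 sites had a peak in all 12 samples, 41 in 3 to 11 samples, 9 in 1 or 2 samples, and 13 in none. The 24 sites with a peak throughout are 32.4% of those with any peak, and of all merged regions 11.6% were called in all 12 samples. As a comparison, 1081 other RAR sites were taken from the 11 chromosomes that the available site list covers completely. Of these, 86.1% had a peak in at least 1 sample and 31.5% in all 12. They were not cleared of the sites that the study lists near RA-regulated genes, as the 87 were. Some may also lie in conserved elements at genes without a mouse RAR site. The 47 conserved sites on the same chromosomes gave 80.9% (67.5 to 89.6%) and 29.8% (18.7 to 44.0%), intervals that include the values of the other RAR sites. Of the 29 sites set aside because they lie near RA-regulated genes, 93.1% had a peak in at least 1 sample and 58.6% (40.7 to 74.5%) in all 12. These intervals cover counting error only and treat sites as independent. Of the 87 sites, 28 lie in 9 loci in which each site is within 500 kb of the next.

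The number of sites with a peak differed widely between samples of one group. NE samples called 50, 64 and 58 of the 87 sites, and DMSO samples called 34, 50 and 53. RA samples called 57, 55 and 50 sites, and BMS493 samples called 33, 55 and 42. The low values are those of DMSO replicate 1 and BMS493 replicate 1, the 2 shortest lists. On these lists the ranges of the 4 groups overlap. With every list shortened to the 51301 peaks of highest −log10(q), NE samples called 46.0 ± 3.0 sites (SD, n = 3), RA samples 42.0 ± 5.3, DMSO samples 35.3 ± 4.2 and BMS493 samples 32.0 ± 3.6. The NE range of 43 to 49 sites then lay above those of DMSO (32 to 40) and BMS493 (28 to 35), and the RA range of 36 to 46 lay above that of BMS493. The other RAR sites were not counted at this list length. Whether these orders are particular to the conserved sites was therefore not tested.

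**Figure D1:**
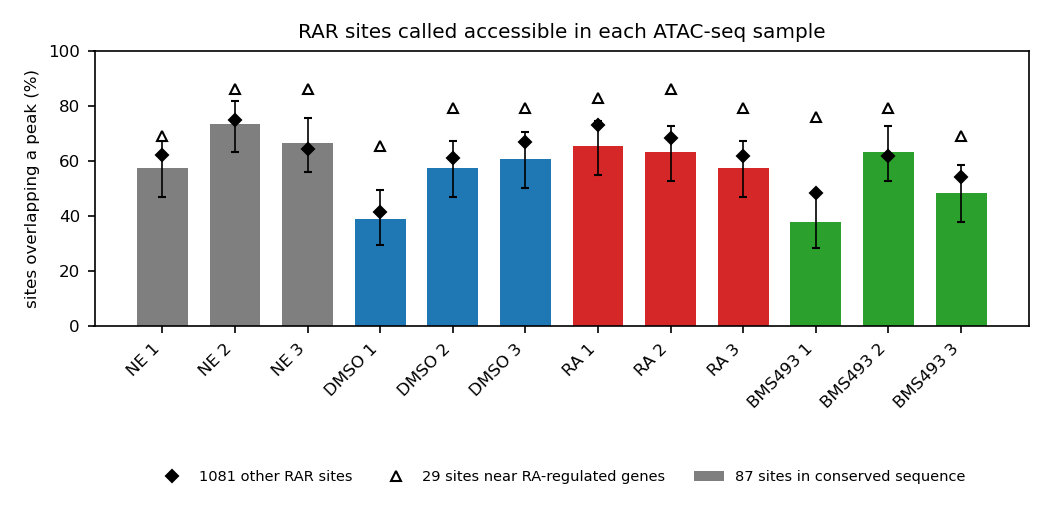
Share of RAR sites (percent, y axis) that overlap a peak in each of the 12 ATAC-seq samples (x axis). Bars are the 87 sites in conserved sequence with 95% Wilson intervals, coloured by group (NE grey, DMSO blue, RA red, BMS493 green), diamonds are 1081 other RAR sites and triangles are the 29 sites near RA-regulated genes. The diamonds follow the bars from sample to sample, with 39.1% of the conserved sites in DMSO replicate 1 and 73.6% in NE replicate 2, and the triangles lie above the bars in all 12 samples.

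Where a peak overlapped a receptor site, its summit was usually close to the middle of the site. This closeness is partly set by the overlap rule, and no other positions were measured for comparison. The distance from the middle of the site to the peak summit, taken as the median over the samples with a peak, was 49.2 bp over the 74 sites (quartiles 29.1 and 89.1 bp), and it was under 100 bp at 58 of them. The sites themselves had a median width of 278 bp. In each sample 85.7 to 97.1% of the summits lay within the site. Peaks at the conserved sites were also wider and taller than the peaks of the same list as a whole. In NE replicate 2 the median width was 399 bp against 190 bp over all peaks, and the median pileup 28 against 13. In DMSO replicate 1, the sample with the smallest difference in width, they were 190 bp against 163 bp and 12 against 10. A wide peak meets a site more readily under the overlap rule, and of several peaks at a site the highest was kept. The same values were not measured at the other RAR sites.

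The location of a site was taken from the study's annotation. Of the 22 sites in introns, 21 had a peak in at least 1 sample and 9 in all 12, and of the 31 intergenic sites these numbers were 29 and 8. Among the 25 sites 1 to 10 kb from a transcription start, 17 had a peak in at least 1 sample and 4 in all 12, and 8 of the 13 sites without any peak belong to this class. Within 1 kb of a start lay 7 sites, of which 5 had a peak and 3 had one in all 12 samples. The last 2 sites lie in exons or UTRs, and both were called in some samples.

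The 24 sites called in every sample had median ranks between 67.2 and 97.6, and in 9 of them no sample fell below a rank of 80. Among the highest were those near ier5l, an immediate early response gene (ranks 91.7 to 99.8 over the 12 samples), near ncoa3, which encodes a coactivator of nuclear receptors (chr11:19058822-19059215, ranks 90.1 to 99.7), and at gas1a, which encodes a hedgehog co-receptor (chr5:46115549-46115793, ranks 89.1 to 98.1). Sites near 5S_rRNA copies also belong here (5S_rRNA sites 2 and 3), but such copies are repeated in the genome and the gene assignment is by proximity alone. The others were at BX842696.1, CR384085.1, CR759816.1, exoc6, foxp1b, ipp, meis1 (sites 2 and 3), pax2a, ralgapa2, rnf220a, si:ch211-247g11.2 site 2, si:dkey-196j8.3, si:dkey-28g23.3 site 1, tcf7l2, zgc:195282, znf536 and both ANGEL1 (2 of 2) sites.

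The 13 sites without a peak in any sample were those of bambia, CABZ01102516.1, ddx54, dre-mir-10b-1, dre-mir-10c, emx2, mafgb, MARK3, meis1 (site 4), meis2a, ppifb, si:ch211-212m6.3 and srsf6b. The nearest peak of any list lay 27 bp away at emx2, a homeobox gene of the forebrain and urogenital system, 126 bp away at mafgb and 157 bp away at dre-mir-10c. For the other 10 sites the distance was 384 to 4220 bp. The median over the 13 was 571 bp.

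**Figure D2:**
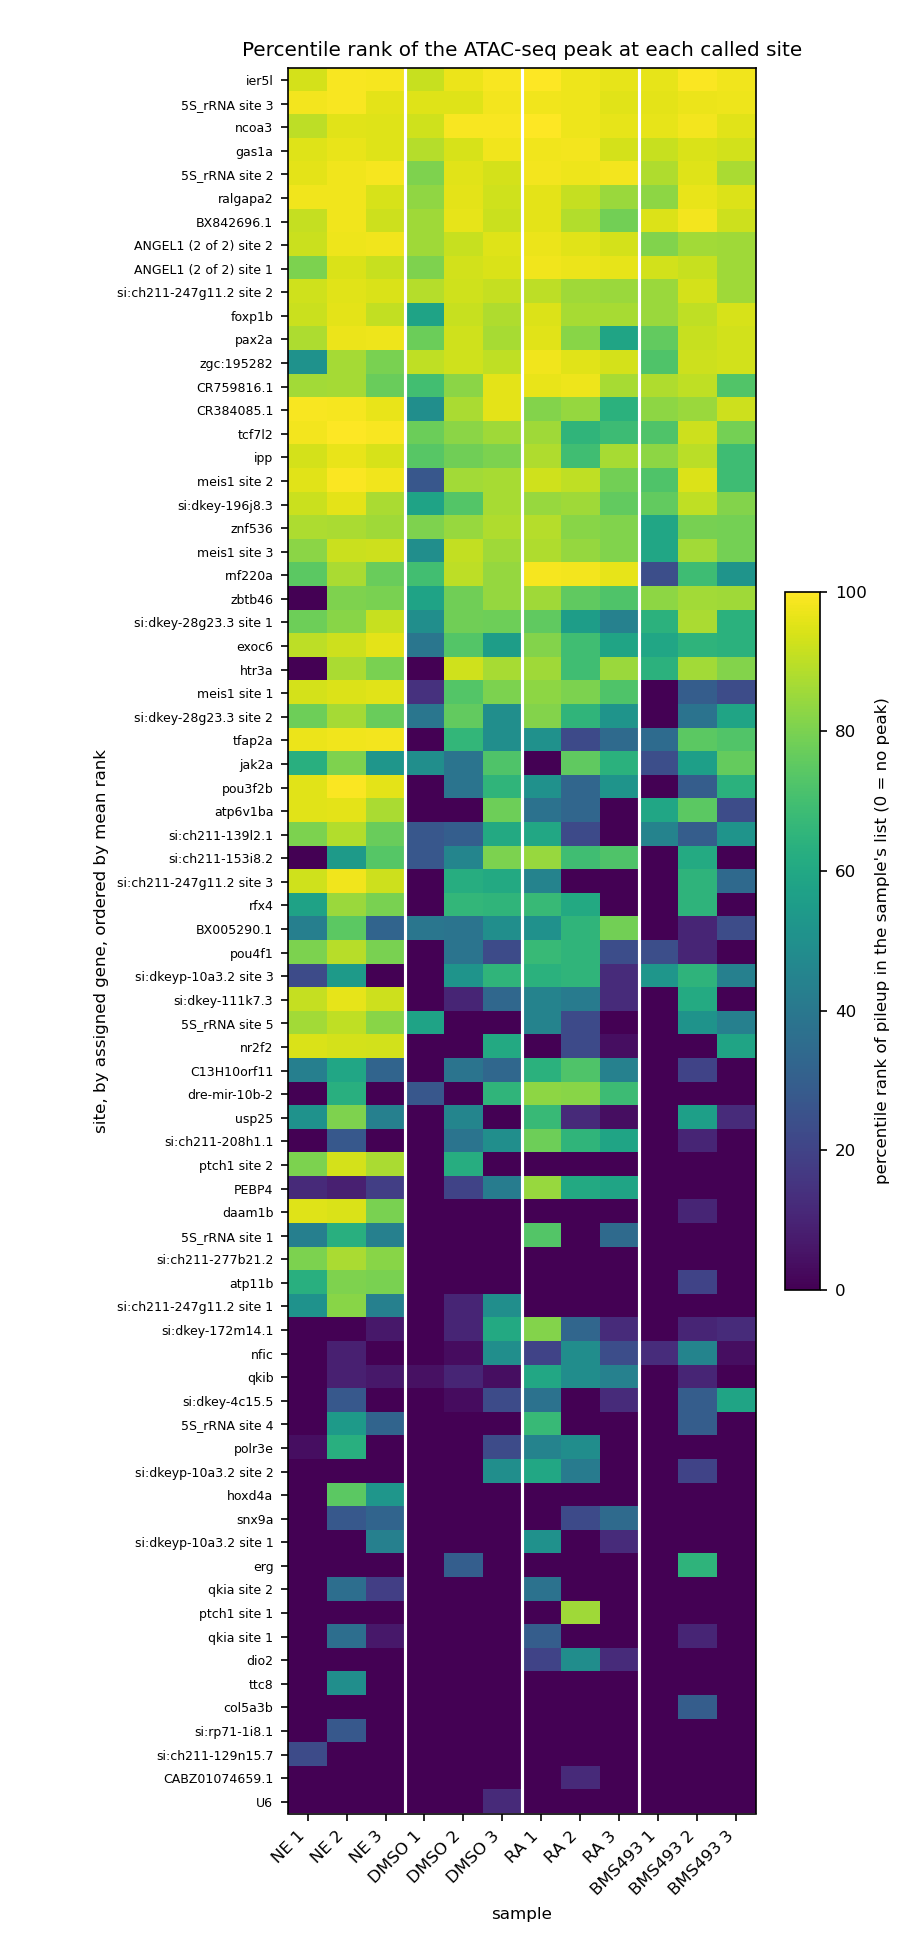
Percentile rank of the pileup (colour, 0 to 100, with 0 for no peak) at the 74 sites called in at least 1 of the 12 samples (columns, with white lines between groups), ordered by mean rank from top to bottom. The upper rows are bright in all samples, as at ier5l (ranks 91.7 to 99.8). A block of rows lower down is bright in the 3 NE samples alone, as at si:ch211-277b21.2 (80.3 to 87.4 in NE and 0 in all 9 endodermal samples), and a few rows are brighter in RA, as at qkib (44.0 to 60.04 in RA and at most 10.4 elsewhere).

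Of the 14 highly conserved sites, 11 had a peak in at least 1 sample and 6 in all 12 (both ANGEL1 (2 of 2) sites, BX842696.1, foxp1b, ncoa3 and znf536). The 3 without a peak were dre-mir-10c, meis2a and srsf6b. Of the other 5, meis1 site 1 and si:ch211-139l2.1 were called in 11 samples, qkib and si:dkey-111k7.3 in 9, and qkia site 2 in 3. The median over the 14 sites of the mean rank was 54.7, beside 27.3 over the other 73. This difference was not tested.

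The differences between conditions were tested with limma on the merged regions, of which 127026 were called in at least 3 samples and were tested. The regions of 65 sites passed this filter, and those of the other 22 sites did not. For a single site, 3 samples in each group allow no two-sided p under 0.1 in an exact permutation test, and p-values measure the spread between these samples, since the labels do not say what a replicate is. RA and BMS493 were both compared with the same 3 DMSO samples. The median mean rank over the 12 samples was 32.5 at the 87 sites and 37.7 at the 1081 other RAR sites, without a filter, and 47.7 at the 65 sites tested beside 25.5 over all regions tested.

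The comparison of RA with DMSO asks whether added RA makes a conserved receptor site more accessible in the endoderm. No site passed an adjusted p of 0.05 (limma, Benjamini-Hochberg), where 0.194% of all regions tested were called higher and 0.0362% lower in RA. The 246 regions behind the first share became 94 without RA replicate 1 and 0 to 5 without any other single sample. An unadjusted p under 0.05 was reached at 7 of the 65 sites tested, all higher in RA. Of all regions tested, 4.44% reached it higher and 2.54% lower. The groups did not overlap at 11 of the 87 sites, all higher in RA and all among the 65 tested. This is beside 5.27% of the regions tested for higher and 1.97% for lower (2.73% and 1.02% of all 245646 regions). The 87 sites include 13 without any peak, while each of the 245646 regions was called in at least 1 sample. Among the 1081 other RAR sites, not cleared of those near RA-regulated genes, the groups did not overlap, with RA higher, at 195 (18.0%). At the 29 sites set aside, RA was higher without overlap at 10 (34.5%) and lower at 1. The median difference was 6.04 percentile points over the 74 called sites, with 48 sites higher and 18 lower, and 0 over all regions tested. It was 0.674 without DMSO replicate 1 and 0.488 without RA replicate 1, where the median over all regions tested was −4.15 and −1.24, and 9.76 without DMSO replicate 3. With lists of equal length 2 sites passed, PEBP4 (limma adjusted p = 0.0205) and si:ch211-208h1.1 (adjusted p = 0.0113). Over the whole series, 1062 of 67438 regions tested were then called higher and 518 lower. Of the regions called, 67.2% were higher in place of 84.2%.

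The site with the smallest adjusted p in this comparison was at qkib, which encodes a Quaking RNA-binding protein and is one of the highly conserved sites (chr13:3497841-3498203, exon or UTR). Its ranks were 60.04, 49.2 and 44.0 in RA, 4.55, 10.4 and 3.72 in DMSO, 0, 10.3 and 0 in BMS493 and 0, 8.87 and 6.58 in NE. The 3 RA samples lie above all 9 others, which stay near the bottom of their lists. The difference of 44.8 ± 11.9 (SE) between RA and DMSO did not pass (limma adjusted p = 0.159).

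One site was called in all RA samples and in no DMSO sample, beside 0.686% of all regions. By the study's annotation it lies in an intron of another gene, and it was assigned to dio2, which encodes a deiodinase that activates thyroid hormone (chr17:16756029-16756369). Its ranks were 19.9, 49.2 and 12.3 in RA, and it was called in none of the other 9 samples. These ranks are in the lower part of each list, and the limma difference of 27.1 ± 8.62 had an adjusted p of 0.312. The region passed the filter of 3 called samples only through RA, where it is high, so its p-value is not independent support. It is counted among the sites with an unadjusted p under 0.05 (limma) against DMSO and against BMS493. When a peak had to cover 50% of the site, no site was called in all RA samples and in no DMSO sample. The number was 2 without DMSO replicate 2 or RA replicate 1 and 3 without RA replicate 2. No site was called in DMSO and missing from RA, beside 0.254% of all regions, except 1 site when DMSO replicate 1 was left out.

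BMS493 holds RAR in its repressive form, so its comparison with DMSO asks which conserved sites depend on the embryo's own RA. No site passed limma's threshold in either direction, where 0% of all regions were called higher and 0.000787% lower. The 2 sites with an unadjusted p under 0.05 were rnf220a and meis1 site 1, both lower in BMS493. Of all regions tested, 0.989% reached it lower and 0.786% higher. The groups did not overlap at 3 of the 87 sites, rnf220a, BX005290.1 and znf536, all lower in BMS493 and all among the 65 tested. This is beside 1.15% of the regions tested for lower and 1.23% for higher (0.596% and 0.635% of all 245646 regions). No site differed by presence, beside 0.105% of regions called in BMS493 only and 0.11% in DMSO only. Sites present in DMSO and missing from BMS493 numbered 2 without DMSO replicate 1 or BMS493 replicate 2 and 1 without DMSO replicate 2, and 1 site was present in BMS493 and missing from DMSO without DMSO replicate 3. The median difference over the 74 called sites was 0, as over all regions.

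At znf536, a zinc finger gene with a highly conserved site (chr7:48107406-48107660), the ranks were 59.0, 79.4 and 79.1 in BMS493 and 80.8, 84.5 and 88.3 in DMSO. The groups are close, with the highest BMS493 value just under the lowest DMSO value, and the RA ranks of 89.0, 82.3 and 81.1 lie in the range of DMSO or just above it. The difference of −12.0 ± 6.09 between BMS493 and DMSO had a limma adjusted p of 1.

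Setting RA against BMS493 compares the 2 ends of receptor activity directly. The regions of 2 sites, rnf220a and PEBP4, were higher in RA (limma), where 0.625% of all regions tested were called higher and 0.131% lower. The 794 regions behind the first share became between 1 and 1333 with 1 sample left out. An unadjusted p under 0.05 was reached at 14 of the 65 sites tested, all higher in RA. Of all regions tested, 5.64% reached it higher and 3.47% lower. The groups did not overlap at 16 of the 87 sites (18.4%), again all higher in RA and all among the 65 tested. This is beside 7.51% of the regions tested for higher and 4.48% for lower (3.88% and 2.32% of all 245646 regions). The other RAR sites, not cleared of those near RA-regulated genes, gave 271 of 1081 for higher (25.1%) and 18 for lower. The median difference was 3.72 percentile points over the 74 called sites and 0.0558 over all regions tested. Over the sites it was 0 without RA replicate 1, 1.44 without BMS493 replicate 1, 6.61 without RA replicate 3 and 7.09 without BMS493 replicate 2. The number of sites past the threshold was 7 with lists of equal length. Over the whole series, 1702 of 67438 regions tested were then called higher and 1068 lower. Of the regions called, 61.4% were higher in place of 82.6%. The number of sites was 5 without DMSO replicate 1 and 1 without NE replicate 2, DMSO replicate 2 or BMS493 replicate 2. It was 0 without NE replicate 1 or 3, any RA sample, or BMS493 replicate 1 or 3.

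rnf220a encodes an E3 ubiquitin ligase, and its site is classed as intronic by the study's annotation (chr2:32840597-32841160). The distance from the assigned start is given as −66297 bp. The ranks were 98.6, 98.4 and 96.4 in RA, 69.7, 89.9 and 84.0 in DMSO, 23.9, 68.8 and 51.7 in BMS493 and 74.96, 87.4 and 77.04 in NE. The 3 treatments do not overlap, with BMS493 lowest and RA highest, and NE lies in the range of DMSO. The pileup was 49, 42 and 32 tags in RA and 8, 16 and 11 tags in BMS493. RA exceeded BMS493 by 49.7 ± 9.41 (SE) percentile points (limma adjusted p = 0.0256), while RA minus DMSO was 16.6 ± 9.41 (adjusted p = 0.833) and BMS493 minus DMSO −33.1 ± 9.41 (adjusted p = 1). With 1 sample left out at a time the difference between RA and BMS493 ran from 37.6 to 60.03, and the call was lost in 7 of the 12 fits (adjusted p up to 0.140).

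The PEBP4 site lies at the start of a gene named for a phosphatidylethanolamine-binding protein (chr8:52800465-52800903). Its ranks were 84.6, 60.8 and 58.4 in RA, 0, 20.2 and 42.2 in DMSO and 12.1, 8.87 and 18.7 in NE, and no BMS493 sample had a peak. RA samples lie above all others. The pileup behind these ranks was 24, 13 and 12 tags in RA and 0, 8 and 10 tags in DMSO. RA exceeded BMS493 by 67.9 ± 15.1 (limma adjusted p = 0.0453) and DMSO by 47.1 ± 15.1 (adjusted p = 0.323). The first call was lost in 10 of the 12 fits with 1 sample left out (adjusted p up to 0.189).

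By presence, 3 sites were called in all RA samples and in no BMS493 sample, beside 1.22% of all regions, and none the other way, beside 0.577%. They are PEBP4, dio2 and dre-mir-10b-2. The number was 8 without BMS493 replicate 2, 5 without RA replicate 2, 6 with lists of equal length and 5 where the peak had to cover the centre of the site. Shares over all regions under these alternatives are not given here.

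The dre-mir-10b-2 site lies 1 to 10 kb from the start of a mir-10 gene, a microRNA family found within the Hox clusters (chr23:36180031-36180253). Its ranks were 83.1, 82.3 and 68.6 in RA, 27.1, 0 and 65.3 in DMSO, 0 in each BMS493 sample and 0, 63.1 and 0 in NE. RA lies above all other samples, and both DMSO and NE are split between samples with and without a peak. The difference of 78.0 ± 19.6 between RA and BMS493 was the widest of the 87 sites and had a limma adjusted p of 0.0756.

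Differences of over 50 percentile points between RA and BMS493 that did not pass the threshold were also measured at 5 other sites. At si:ch211-208h1.1, in an intron of nr2f2 by the study's annotation (chr18:23689346-23689680), ranks were 77.8, 65.3 and 58.4 in RA, 0, 38.4 and 49.5 in DMSO and 0, 10.3 and 0 in BMS493. At meis1 site 1, which is highly conserved and intergenic (chr13:5129470-5129966), they were 83.1, 80.3 and 72.5 in RA, 14.3, 73.1 and 80.3 in DMSO and 0, 29.6 and 23.4 in BMS493. RA and BMS493 are apart at both sites, and DMSO overlaps RA at meis1 alone. The limma differences between RA and BMS493 were 63.8 ± 16.2 (adjusted p = 0.0801) and 62.2 ± 15.3 (adjusted p = 0.0684), the latter on the merged region, where the RA values differ slightly from those at the site. At BX005290.1 the ranks were 50.5, 65.3 and 78.7 in RA, 39.4, 38.4 and 49.5 in DMSO and 0, 10.3 and 23.4 in BMS493, 3 groups that do not overlap (RA minus BMS493 53.6 ± 16.2, limma adjusted p = 0.160). At C13H10orf11, an intronic site, RA gave 63.9, 72.6 and 44.0, DMSO 0, 38.4 and 33.2, and BMS493 0, 20.0 and 0. The intronic site of si:ch211-153i8.2 had ranks of 84.6, 69.2 and 72.5 in RA and 0, 61.2 and 0 in BMS493, with DMSO between 27.1 and 80.3.

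**Figure D3:**
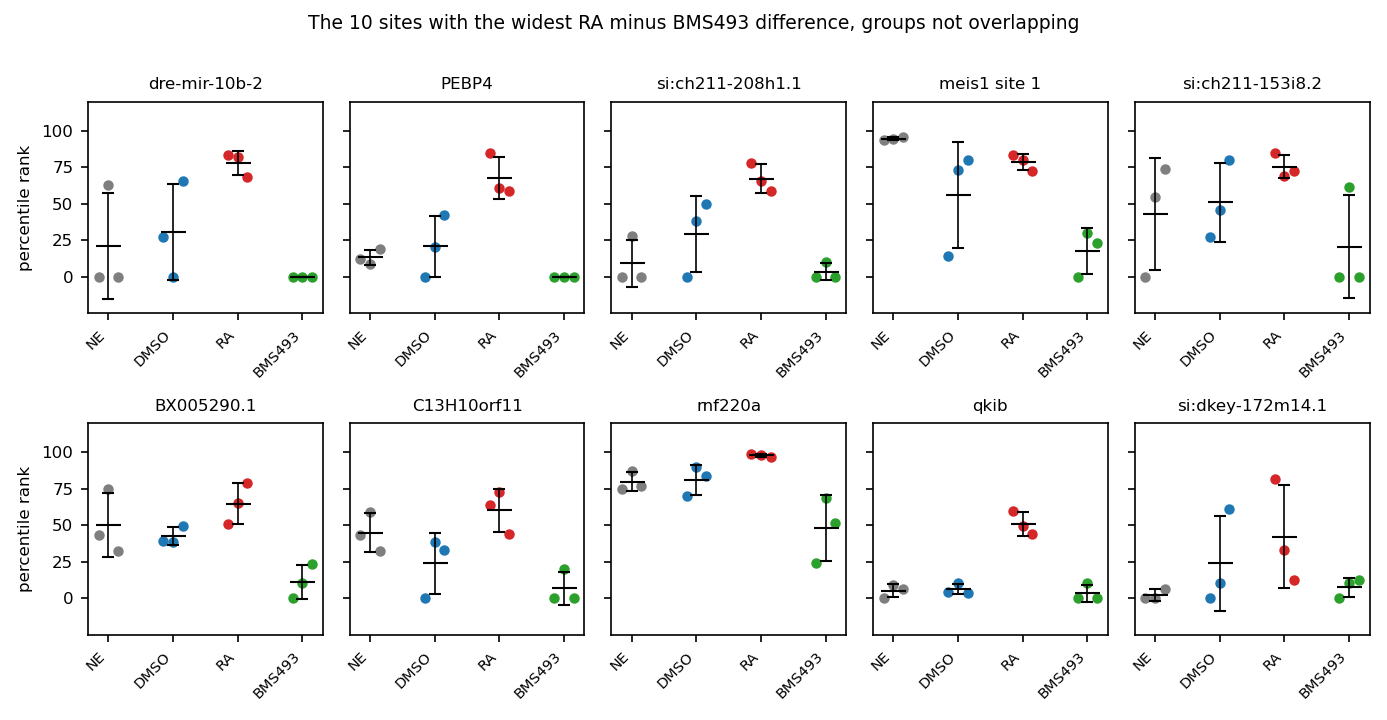
Percentile rank of the pileup (y axis, 0 for no peak) in the 3 samples of each group (x axis) at the 10 sites with the widest difference between RA and BMS493 among those whose groups do not overlap. Points are samples, horizontal ticks are means and bars are ± 1 SD. At all 10 sites the 3 RA points lie above the 3 BMS493 points, from a difference of 78.0 at dre-mir-10b-2 to 34.7 at si:dkey-172m14.1, and only PEBP4 and rnf220a passed limma's threshold.

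The widest contrast at these sites was between cell types. DMSO-treated endoderm was lower than NE at 10 sites by limma and higher at none, where 4.91% of all regions tested were called lower and 2.16% higher. An unadjusted p under 0.05 was reached at 22 sites lower and 1 site higher in DMSO, of 65 tested. Of all regions tested, 12.5% reached it lower and 5.86% higher. The groups did not overlap at 24 of the 87 sites with NE higher (27.6%) and at 1 with DMSO higher (zgc:195282). All of these sites are among the 65 tested. Beside them stand 13.1% and 4.68% of the regions tested and 6.75% and 2.42% of all 245646 regions. The other RAR sites gave 217 of 1081 with NE higher (20.1%) and 54 with DMSO higher. The median difference, DMSO minus NE, was −12.8 over the 74 called sites and −3.78 over all regions tested. Without DMSO replicate 1 these were −6.31 and 1.09, without NE replicate 2 they were −7.05 and 0, and with lists of equal length −5.17 and 0.0335. With lists of equal length, 18 sites were lower in DMSO and 2 were higher, ncoa3 and zgc:195282. Over the whole series, 4975 of 67438 regions tested were then called lower and 4508 higher. Of the regions called, 47.5% were higher in DMSO in place of 30.6%. The number of sites lower in DMSO was 4, 2 and 3 without NE replicates 1, 2 and 3, and 6 without DMSO replicate 1. Over all regions tested, 3550, 1935 and 3285 were lower without NE replicates 1, 2 and 3, and 4470 without DMSO replicate 1. Those higher numbered 1811, 2473 and 2099 without the NE replicates and 5345 without DMSO replicate 1. With all samples, 6239 regions were lower and 2748 higher.

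The call at 3 of the 10 sites was kept under every alternative that tested the site. daam1b encodes a formin that acts in Wnt signalling and cell polarity, and its site (chr20:21978748-21979027, 1 to 10 kb from the start) had ranks of 94.9, 94.2 and 79.8 in NE and 0 in every DMSO sample. Among the other endodermal samples a single peak was called, at rank 10.3 in BMS493 replicate 2. The difference was −89.6 ± 13.3 (SE, limma adjusted p = 0.000835). The intergenic site of si:ch211-277b21.2 (chr24:25161431-25161727) had ranks of 80.3, 87.4 and 82.1 in NE and no peak in any of the 9 endodermal samples (difference −83.3 ± 12.53, limma adjusted p = 0.000917). It was the only site called in all NE samples and in no endodermal sample. Its region thus passed the filter of 3 called samples only through NE, where it is high, so its p-value is not independent support. With an NE sample left out it was not tested. At atp11b, an intergenic site near a gene for a phospholipid flippase subunit (chr22:40060468-40060697), the ranks were 63.1, 80.7 and 79.8 in NE and 0 in DMSO (DMSO minus NE −74.5 ± 13.1, limma adjusted p = 0.00213). At daam1b and atp11b, each with a single endodermal peak, the filter was also met through NE.

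With 5S_rRNA site 1 (ranks 43.3, 63.1 and 43.7 in NE, adjusted p = 0.0843), these make 4 sites called in every NE sample and in no DMSO sample, beside 2.37% of all regions. None was called in DMSO only, beside 0.926%. At 5S_rRNA site 1 a peak was also called in RA replicates 1 and 3, at ranks 73.2 and 34.6. The number of such sites was 9 without NE replicate 1 and 7 with lists of equal length, where shares over all regions are not given here.

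The other 7 sites lower in DMSO include 4 assigned to transcription factor genes, all intergenic. Their distance from the assigned start is −13634 bp at nr2f2, −41361 bp at pou3f2b, 46947 bp at pou4f1 and 88955 bp at tfap2a. nr2f2 encodes the orphan nuclear receptor COUP-TFII, and its intergenic site (chr18:23820342-23820594) had ranks of 94.4, 93.7 and 93.2 in NE, 0, 0 and 60.9 in DMSO, 0, 22.6 and 3.85 in RA and 0, 0 and 58.4 in BMS493 (DMSO minus NE −73.5 ± 19.8, limma adjusted p = 0.0299). NE is uniform and high, and in each endodermal group at least 1 sample had no peak. At tfap2a, a regulator of neural crest and epidermis (chr24:8440015-8440260), NE gave 97.1, 97.8 and 98.1 and DMSO 0, 66.3 and 49.5 (−59.1 ± 16.7, limma adjusted p = 0.0381). The POU domain genes act mainly in neurons: pou4f1 (chr6:4479288-4479540) had 80.3, 89.4 and 79.8 in NE and 0, 38.4 and 22.7 in DMSO (−62.8 ± 15.3, limma adjusted p = 0.0162), and pou3f2b (chr16:34832574-34832930) had 95.4, 99.3 and 96.0 in NE and 0, 38.4 and 65.3 in DMSO (−62.3 ± 18.3, limma adjusted p = 0.0474). DMSO replicate 1 is without a peak at all 4 of these sites, and without it only pou4f1 among them passed (limma adjusted p = 0.0296).

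The remaining 3 are ptch1 site 2, exoc6 and si:dkey-111k7.3. ptch1 encodes the hedgehog receptor, and its intronic site 2 (chr8:30822539-30822750) had ranks of 80.3, 93.7 and 87.3 in NE and a single endodermal peak, in DMSO replicate 2 at 62.2 (−66.4 ± 16.8, limma adjusted p = 0.0208). This region also met the filter of 3 called samples through NE. exoc6 encodes an exocyst subunit, and its intronic site (chr12:9790661-9791060) was called in all 12 samples, with 90.1, 92.5 and 96.0 in NE and 39.4, 73.1 and 55.7 in DMSO (−36.8 ± 9.83, limma adjusted p = 0.0280). The highly conserved site of si:dkey-111k7.3 (chr6:36259700-36259923) had 91.2, 96.2 and 92.5 in NE and 0, 10.4 and 33.2 in DMSO (−78.7 ± 18.5, limma adjusted p = 0.0131). NE lies above DMSO without overlap at all 3.

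**Figure D4:**
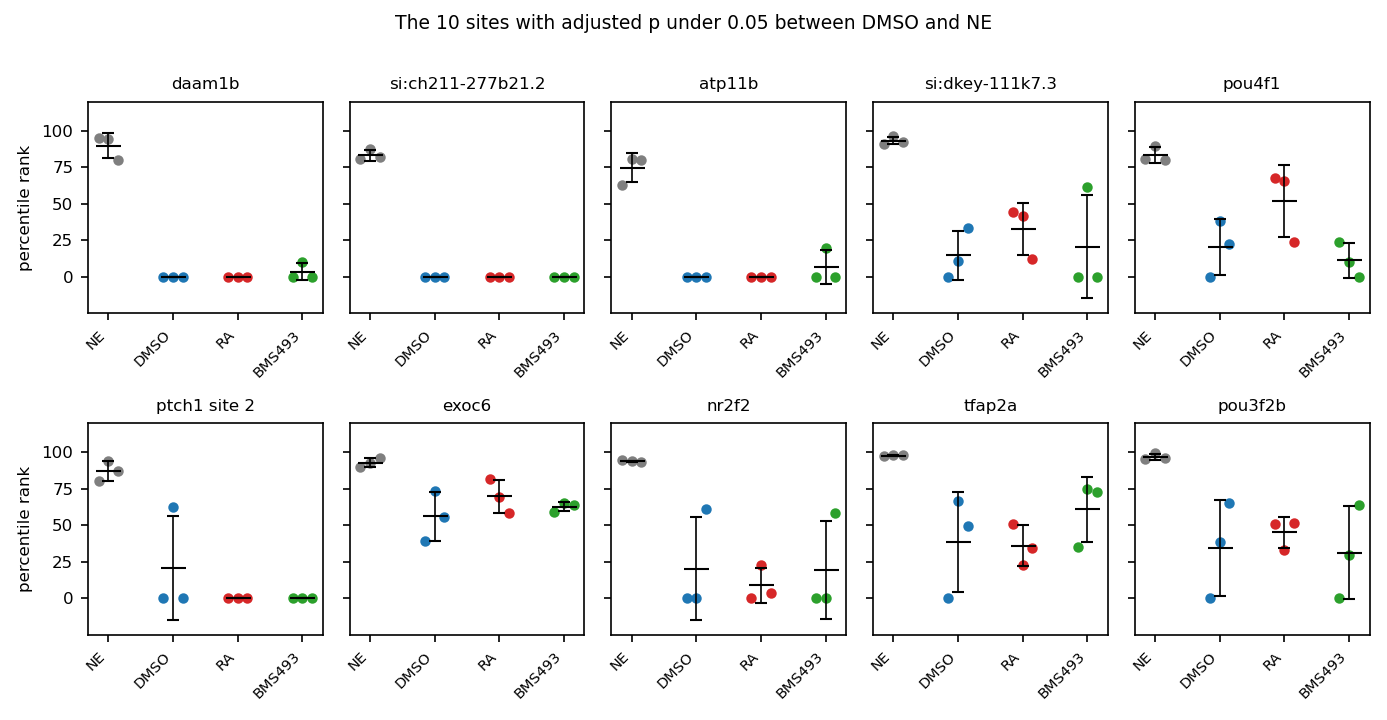
Percentile rank of the pileup (y axis, 0 for no peak) in the 3 samples of each group (x axis) at the 10 sites with an adjusted p under 0.05 between DMSO and NE, in order of adjusted p. Points are samples, horizontal ticks are means and bars are ± 1 SD. NE points lie above every DMSO point at each site, from −89.6 (DMSO minus NE) at daam1b to −36.8 at exoc6.

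**Figure D5:**
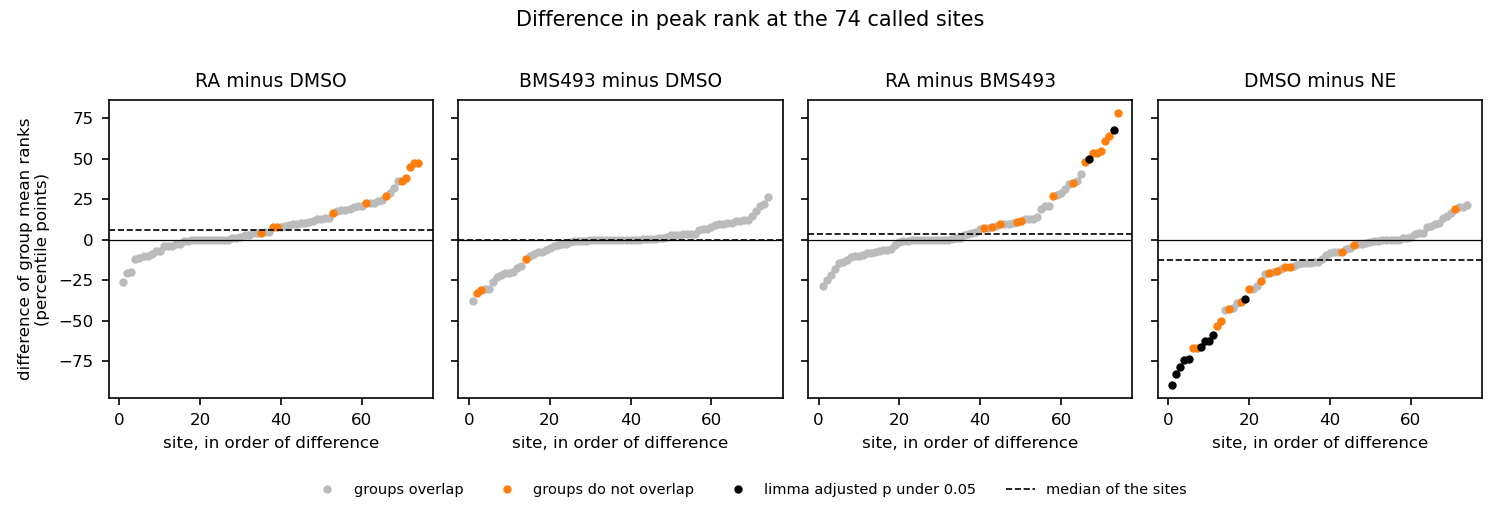
Difference of group mean ranks (percentile points, y axis) at the 74 called sites, sorted from lowest to highest (x axis) in each of the 4 comparisons. Grey points are sites whose groups overlap, orange points sites whose groups do not overlap, black points sites with a limma adjusted p under 0.05, and the dashed line is the median of the sites (6.04, 0, 3.72 and −12.8 from left to right). The separated sites lie above 0 with RA, below 0 in BMS493 minus DMSO, and below 0 in DMSO minus NE with 1 exception.

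By the role of the assigned gene, the 4 sites of the Hox clusters (hoxd4a and 3 mir-10 genes) had a peak least often among the gene groups. Sites that the study lists near RA-regulated genes, which in the paper include several hox genes, had been set aside. Of the 4 sites, 2 had a peak, none in all 12 samples, and the region of dre-mir-10b-2 alone was tested. The hoxd4a site was called in NE replicates 2 and 3 (ranks 74.8 and 52.7) and in no endodermal sample. The dre-mir-10b-1 site of the same cluster had no peak.

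The 8 sites at Meis genes and their neighbours lie at 2 loci. Meis proteins are homeodomain partners of Hox proteins. A peak was present at 6 of the 8 sites, in all 12 samples at 5, and none passed limma's threshold in any comparison on the lists as deposited. meis1 site 1 was higher in RA than in BMS493 with lists of equal length (limma adjusted p = 0.00674) and without DMSO replicate 1 (adjusted p = 0.0120). With lists of equal length, meis1 sites 1 and 2 and si:dkey-196j8.3 were also lower in DMSO than in NE (limma adjusted p = 0.00715, 0.0333 and 0.0318). At the chromosome 13 locus, meis1 sites 2 and 3 kept their peak in every sample, with NE ranks of 95.4, 99.3 and 97.8 and BMS493 ranks of 72.6, 94.7 and 68.8 at site 2, whereas meis1 site 1 was at 0 in BMS493 replicate 1. The nearest peak to meis1 site 4, also intronic, lay 1605 bp away. At the chromosome 17 locus, both ANGEL1 (2 of 2) sites were open throughout. Site 2 gave 97.1, 95.4 and 93.5 in RA and 81.1, 86.2 and 85.7 in BMS493, groups that do not overlap, with an RA minus BMS493 difference of 11.02 (limma adjusted p = 0.251, and 0.0097 with lists of equal length).

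Among the 3 sites of the nuclear receptor and coregulator group, the ncoa3 site was high in all samples. The other 2, both at the locus of nr2f2, which the paper names as RA-regulated, differed from each other. The intergenic site assigned to nr2f2 was high in NE alone, and the intronic site assigned to si:ch211-208h1.1 was highest in RA. The nr2f2 locus on chromosome 18 holds 5 of the sites, and at si:ch211-247g11.2 site 1 the ranks were 51.1, 82.3 and 43.7 in NE, 0, 10.4 and 49.5 in DMSO and 0 in all RA and BMS493 samples. Site 3 of the same gene had 93.0, 97.8 and 92.5 in NE and 0, 62.2 and 60.9 in DMSO (limma adjusted p = 0.154, and under the threshold with lists of equal length, where the difference was −89.3).

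Of 13 sites at other transcription factor genes, 11 had a peak and 4 had one in all 12 samples (foxp1b, pax2a, tcf7l2 and znf536). Of the 10 tested, 3 were lower in DMSO than in NE (pou3f2b, pou4f1 and tfap2a) and none passed in the other comparisons. Lower in DMSO were 10 of all 65 sites tested and 4.91% of all regions tested. The tcf7l2 site, in an intron of the gene for a Wnt pathway effector (chr12:32761105-32761583), had 98.2, 99.7 and 99.1 in NE and 77.7, 82.8 and 85.6 in DMSO, groups that do not overlap (limma adjusted p = 0.130). pax2a, a regulator of the midbrain boundary and kidney, was called throughout, with overlapping groups.

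Of 6 signalling sites, 5 had a peak, 1 of them in all 12 samples (gas1a), and 2 of the 4 tested were lower in DMSO than in NE (daam1b and ptch1 site 2). This stands beside 10 of all 65 sites tested and 4.91% of all regions tested. Both sites met the filter of 3 called samples through NE, and an excess in this group was not tested. At ptch1 site 1 the only peak was in RA replicate 2, at rank 85.6. Of 4 sites at RNA-binding and splicing genes, 3 had a peak and none in all 12 samples. Both qkia sites were called in few samples (4 and 3), with no DMSO sample among them, and the srsf6b site had no peak.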

How the data were processed

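Endodermal (DMSO, RA, BMS493) and NE cells were profiled by ATAC-seq, 3 samples each, grouped by their labels (the headers of the NE lists number the replicates differently). The authors mapped the reads to Zv9 (Bowtie2) and called peaks in each library by itself with MACS2 2.1.1.20160309. No control was given, tags were shifted by 40 bp and extended to 80 bp, 1 tag per position was kept, and q had to be under 0.05. The deposited pileup is a signal in tags that the authors did not scale between samples. Fold enrichment, also deposited, is the ratio of pileup to local background, and p-values and q-values were deposited as −log10. Signal under the threshold is not listed.

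Peaks were merged at 1 bp overlap and ranked by pileup within each list (Python 3.11.15, numpy 2.4.6). limma 3.58.1 (R 4.3.3, trend and robust) was fitted to all 12 samples on regions called in at least 3, with Benjamini-Hochberg adjustment over all regions. A run on simulated data removed or lowered peaks in RA at regions called in all 12 samples. Gains, and changes at regions called in fewer samples, were not simulated. Regions of 6 sites differ in value from the site itself. Other RAR sites had a score above 50 and were not in the study's list of conserved elements. Those near RA-regulated genes were not removed from them. Members, gene groups and lists were chosen with earlier results of these data known. Named are sites past limma's threshold or differing by presence, the 5 widest differences per comparison among groups that do not overlap, up to 4 examples per gene group, and highly conserved sites. Gene identifiers matched a symbol table for 54 of 77 genes, and MARK3 was named from it. No site sequence was read, since no genome of the Zv9 build was used here. As alternatives, peaks were limited to a −log10(q) of 3 or more. Others were lists of equal length, ranks of −log10(q), stricter overlap, sites as rows, no filter, a replicate block and leaving out each sample.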

Additional observations from a re-analysis of the deposited data

How the results depend on the processing

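The sites with a peak in all samples (24) and in at least 1 sample (74) moved by no more than 1.5 times under every alternative. The first number fell to 16 with 50% of the site covered, which is at that limit, and to 20 where a peak had to cover the centre. The second fell to 63 with lists of equal length. The median differences over the sites moved, with 1 sample left out, from 0.488 to 9.76 (RA minus DMSO), −3.15 to 1.75 (BMS493 minus DMSO), 0 to 7.09 (RA minus BMS493) and −16.8 to −6.31 (DMSO minus NE). Shortening the lists to 51301 peaks changed most. The mean number of sites called became 46.0 in NE, 42.0 with RA, 35.3 with DMSO and 32.0 with BMS493. Calls by limma became 2 higher in RA than in DMSO, 7 higher in RA than in BMS493, and 2 higher and 18 lower in DMSO than in NE. Over all 67438 regions then tested, these calls numbered 1062, 1702, 4508 and 4975. By presence the counts became 2 (RA over DMSO), 6 (RA over BMS493), 1 (DMSO over BMS493) and 7 (NE over DMSO). Where a peak had to cover the centre of the site, RA samples called 46.7 sites on average, 5 sites were present in RA and missing in BMS493, and 1 was present in DMSO and missing in BMS493. With 50% of the site covered, the means were 48.7 in NE, 34.7 in DMSO and 43.0 in RA, and 0 sites were present in RA and missing in DMSO. The limma calls for RA over BMS493 numbered 1 with ranks of −log10(q) and 1 with no filter on samples.

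With 1 sample left out at a time, limma gave 0 to 5 sites for RA over BMS493 and 2 to 11 for NE over DMSO. Presence gave 1 to 3 sites for RA over DMSO and 0 to 1 for DMSO over RA, 3 to 8 for RA over BMS493, 0 to 1 for BMS493 over DMSO and 0 to 2 for DMSO over BMS493, and 4 to 9 for NE over DMSO. Presence counts over all regions are not given for the alternatives. Deviations of same-numbered samples from their group means correlated by −0.154 to 0.206, and over 0.1 in 2 of 12 pairs. Those 2 pairs were replicates 1 and replicates 2 of BMS493 and DMSO (0.206 and 0.182). Differently numbered pairs ran over a similar range, from −0.201 (BMS493 replicate 2 with DMSO replicate 1) to 0.205 (RA replicate 1 with BMS493 replicate 2). Whether same-numbered samples share a preparation cannot be told from these values, and the labels do not say. With the replicate block limma called 1 site for RA over BMS493 in place of 2, and it moved no other count of sites past 1.5 times. Over all regions tested the block changed 246 regions higher and 46 lower in RA than in DMSO to 0 and 1, and 794 higher and 167 lower in RA than in BMS493 to 379 and 76. Over the 12 single-site calls, 154 of 213 alternative fits kept the call, 59 lost it and 0 changed direction. The causes of these changes were not tested. The data are limited by the peak lists: a site at 0 may hold signal under the threshold, and low ranks near it rest on few tags.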
